A study of Mus musculus with 16 samples.

Results

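The results below concern 10 genes through which the MAP kinase ERK limits or relays its own signal: the phosphatases Dusp4, Dusp5 and Dusp6, the inhibitors Spry2, Spry4, Spred1, Spred2 and Spred3, and the transcription factors Etv4 and Etv5. They were taken by symbol from the deposited count table, and all 10 were found among its 24982 entries. RNA was sequenced from lumbar dorsal root ganglia (DRG, the clusters of sensory neuron cell bodies beside the spinal cord) of C57BL/6 mice aged 10 to 12 weeks. The mice were wild type (WT) or carried the knock-in that the labels name TrkA/C (TrkA-C), whose construct the labels do not describe. The ankle joint received vehicle (titled Saline) or complete Freund's adjuvant, an emulsion that inflames the joint (titled MoAr), and the ganglia L4 to L6 of the injected side were taken after 14 days. Each library pooled 6 ganglia from 2 mice, and each of the 4 groups (WT Saline, WT MoAr, TrkA-C Saline and TrkA-C MoAr) had 4 libraries. Every group received an injection, so no uninjected ganglia enter the comparisons.

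Trk receptors are receptor tyrosine kinases for the neurotrophins. TrkC, the receptor for neurotrophin-3, is best known from proprioceptors and other large sensory neurons. Trk receptors activate Ras, which drives the RAF, MEK and ERK kinases in turn. ERK induces genes that feed back on the pathway: dual-specificity phosphatases remove the activating phosphates from ERK, while Sprouty and Spred proteins act further upstream at Ras and RAF. Transcripts of these genes and of the ETS factors Etv4 and Etv5 are therefore often read as a record of past ERK signalling, although each gene also has other inputs.

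Total counts ran from 22742209 to 40910947 per library, and the 10 genes had between 63 counts (Etv4) and 5057 counts (Etv5) in a library. All 10 passed the filter on low counts and were tested among 15507 genes. Sensory neuron markers were high throughout, with a mean over 13 genes of 10.03 to 10.32 log2 CPM (counts per 1000000 counts, normalised by TMM, which scales libraries to a common composition). Ntrk3, which encodes TrkC, stood at 29.3 to 61.4 CPM in the 8 WT libraries and at 99.1 to 138 CPM in the 8 TrkA-C libraries. WT MoAr 1, titled WT but tagged as knock-in in its genotype field, was at 48.4 CPM, within the WT range. Skeletal muscle markers (11 genes) summed to 915 and 785 CPM in TrkA-C Saline 1 and 4, to 126 CPM in TrkA-C Saline 3, and to at most 85.1 CPM in the other 13 libraries. Axon injury markers (13 of 14 tested) averaged 5.52 and 5.43 log2 CPM in WT MoAr 1 and 2, and between 3.68 and 4.91 in the other 14 libraries.

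The promoters of Dusp5 and Etv5 are printed here as they stand upstream of the annotated starts. Dusp5 is shown because its promoter holds a rare pair of matches to the site of serum response factor, a factor that works with ERK-phosphorylated ETS partners, and Etv5 because it gave the smallest p of the 10 genes. Sequences are from RefSeq (GRCm38.p6), 5′ to 3′ on the gene's strand. Capitals in Dusp5 mark, in order, the ETS core GGAAGT on the opposite strand, a pair of adjoining CArG boxes (the serum response factor site), and the short form of the cyclic-AMP response element, TGACG, on the opposite strand. Capitals in Etv5 mark GGAAGT. For Dusp5, 214 of the 250 bases before the start are printed, because bases in exons of protein-coding genes were left out, here those next to the start.
Dusp5 (chr19:53528895-53529108, plus strand): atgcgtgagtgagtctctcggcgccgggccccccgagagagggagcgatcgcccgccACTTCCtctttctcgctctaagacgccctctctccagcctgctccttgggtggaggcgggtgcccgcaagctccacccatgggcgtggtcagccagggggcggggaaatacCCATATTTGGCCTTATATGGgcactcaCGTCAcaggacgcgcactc
Etv5 (chr16:22438369-22438618, minus strand, an inner start site of the gene): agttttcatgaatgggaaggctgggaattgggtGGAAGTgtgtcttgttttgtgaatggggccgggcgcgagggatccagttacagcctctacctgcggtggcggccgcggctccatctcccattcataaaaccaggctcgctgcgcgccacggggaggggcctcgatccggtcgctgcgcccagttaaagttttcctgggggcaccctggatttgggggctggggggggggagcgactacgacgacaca
In the 250 bases before each start, 5 motifs were searched on both strands. They were the CArG box, the cyclic-AMP response element TGACGTCA with its short form TGACG that it contains, the AP-1 site TGANTCA, and the ETS core GGAAGT. The CArG boxes of Dusp5 lie at -82 to -73 and -72 to -63, counted from the annotated start and not from the end of the printed letters. Among 32851 promoter windows of the same length, 1.47% held at least 1 CArG box and 6 windows (0.0183%) held at least 2. GGAAGT was found in 19.7% of windows and TGACG in 17.8%, so these letters are common. Of the 10 genes, 7 had a window in the reference. Spred2 also held TGACG and GGAAGT, and the windows of Dusp6, Spry2, Spred1 and Spred3 held none of the 5 motifs; that of Spred3 starts inside the annotated gene. Etv5 has a second, outer window (chr16:22439720-22439820, 101 bases outside such exons), which held none of the 5 motifs either. A match is a description of the letters only.

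The genes differed widely in level. Per kilobase of annotated exon, Etv5 was highest, with a median over the 16 libraries of 29.1 CPM per kb (range 25.3 to 43.9), followed by Spred2 at 18.6 (15.7 to 20.7). Spred1 (median 10.8) and Spry2 (10.6) came next, and their ranges overlapped. Spry4 (7.48), Dusp5 (6.83) and Dusp6 (6.65) followed, with ranges that overlapped among themselves and, for Spry4, with those of Spry2 and Spred1. Dusp4 (2.19) and Spred3 (2.11) were lower, and Etv4 was lowest at 1.15 CPM per kb (0.700 to 1.52), below every library's value for each of the other 9 genes. The spread within groups also differed: the pooled coefficient of variation was 7.14% for Spred2 and 8.15% for Spred3, but 15.2% for Dusp6, 15.8% for Dusp4 and 15.9% for Etv4. All values that follow are CPM, not per kilobase, and compare 1 gene across libraries.

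**Figure D1:**
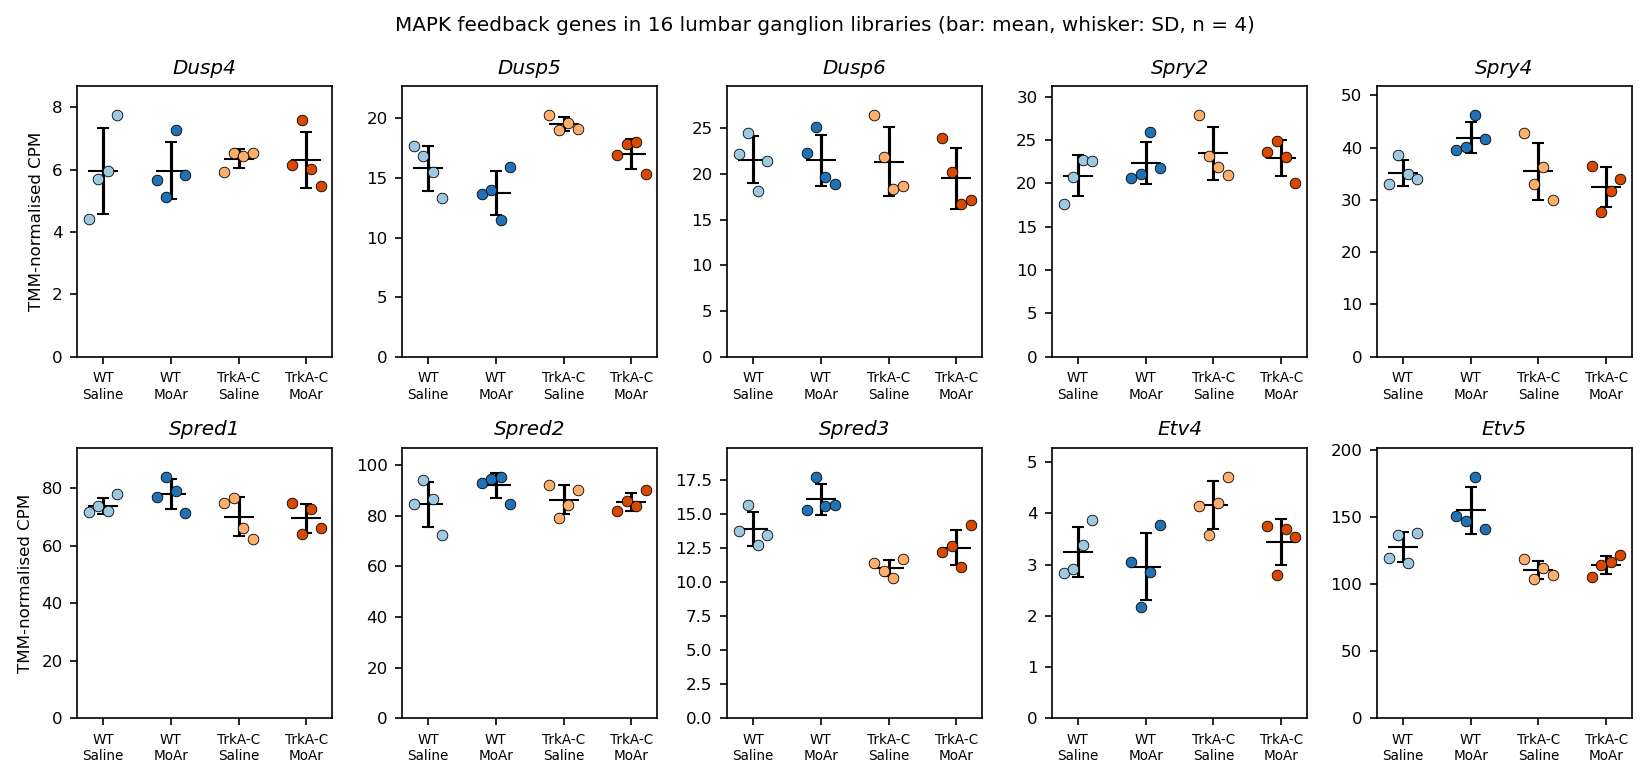
TMM-normalised CPM (vertical axes, from 0) of each of the 10 genes in 16 libraries, 1 point per library, with the group mean (bar) and SD (whisker, n = 4). Etv5 stood at 141 to 180 CPM in WT MoAr and at 105 to 122 CPM in TrkA-C MoAr, and Spred3 was lower in TrkA-C than in WT after either injection.

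The first question was whether the feedback genes differed between TrkA-C and WT ganglia. After MoAr, the transcription factor gene Etv5 and the inhibitor gene Spred3 were lower in TrkA-C, and after Saline Spred3 alone passed the test. Averaged over both injections, Etv5 and Spred3 fell and the phosphatase gene Dusp5 rose, with ranges of the 8 WT and 8 TrkA-C libraries that overlapped for each. No Sprouty gene, and neither Dusp4, Dusp6, Spred1, Spred2 nor Etv4, passed the test in any genotype comparison. All comparisons used edgeR's quasi-likelihood test with Benjamini-Hochberg adjustment over 15507 genes, and a gene was called at an adjusted p under 0.05. In bulk tissue, fewer cells of a type and less RNA per cell cannot be told apart.

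Etv5 (Entrez 104156, mm10 chromosome 16, 22381313 to 22439570, minus strand) encodes an ETS transcription factor of the PEA3 group that ERK both induces and activates. Its 4 libraries of WT MoAr stood at 151, 147, 180 and 141 CPM, and those of TrkA-C MoAr at 105, 114, 116 and 122 CPM. Every TrkA-C library was below every WT library, and the gap between the groups was wider than the range within TrkA-C. Group means were 155 ± 17.3 and 114 ± 6.75 CPM (SD, n = 4), and by edgeR's estimate the level fell by 26.1% (log2 fold change -0.44 ± 0.08, SE; 95% interval -0.60 to -0.27; adjusted p = 0.00292). The call held in each of 15 alternative analyses and 16 analyses with 1 library left out, with log2 fold changes from -0.49 to -0.35.

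After Saline, Etv5 was at 120, 137, 116 and 138 CPM in WT and at 119, 104, 112 and 107 CPM in TrkA-C. WT Saline 3 lay within the TrkA-C range, so the groups overlapped. The log2 fold change was -0.21 ± 0.08 (95% interval -0.37 to -0.05; edgeR adjusted p = 0.114), and Etv5 was not called. Over both injections the log2 fold change was -0.32 ± 0.05 (edgeR adjusted p = 0.000798).

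Spred3 (Entrez 101809, chromosome 7, 29157783 to 29170070, minus strand) encodes the third Spred protein, a membrane-associated inhibitor of Ras signalling that lacks the Kit-binding activity of its relatives. It stood at 13.8, 15.7, 12.7 and 13.4 CPM in WT Saline and at 11.4, 10.8, 10.3 and 11.7 CPM in TrkA-C Saline. In the MoAr groups it was at 15.3, 17.8, 15.6 and 15.7 CPM in WT and at 12.2, 12.7, 11.1 and 14.2 CPM in TrkA-C. TrkA-C libraries were lower than all WT libraries of the same injection in both cases.

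Spred3 fell by 20.6% after Saline (log2 fold change -0.33 ± 0.09; edgeR adjusted p = 0.0447) and by 22% after MoAr (-0.36 ± 0.09; edgeR adjusted p = 0.0339). Over both injections it fell by 21.3% (-0.35 ± 0.06; edgeR adjusted p = 0.00174), and that call held in 14 alternatives and in 16 analyses with 1 library left out. The 2 separate calls lay near the threshold. After Saline the call held only when TrkA-C MoAr 4 was left out, and ended without any 1 of the other 15 libraries (highest adjusted p = 0.116, without TrkA-C Saline 3). After MoAr it ended without WT MoAr 1, 2, 3 or 4 or TrkA-C MoAr 1, 2 or 3 (highest adjusted p = 0.155, without TrkA-C MoAr 3). Of the exon bases of Spred3, 202 lie within the span of Ggn on the opposite strand, introns of Ggn included. Ggn had 34 to 65 counts per library against 293 to 577 for Spred3. Whether the counting used strand is not given in the sources used here.

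Dusp5 (Entrez 240672, chromosome 19, 53529145 to 53541809, plus strand) encodes a nuclear phosphatase specific for ERK, and was the only one of the 10 genes called higher in TrkA-C. It was at 17.6, 16.8, 15.5 and 13.3 CPM in WT Saline and at 20.3, 19.0, 19.6 and 19.1 CPM in TrkA-C Saline. In the MoAr groups it was at 13.6, 14.0, 11.4 and 15.9 CPM in WT and at 16.9, 17.8, 18.0 and 15.3 CPM in TrkA-C. The Saline groups did not overlap, and in the MoAr groups TrkA-C MoAr 4 lay below WT MoAr 4.

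The log2 fold change of Dusp5 was 0.30 ± 0.10 after Saline (edgeR adjusted p = 0.0792) and 0.31 ± 0.10 after MoAr (edgeR adjusted p = 0.126), neither called. The average of both, 0.30 ± 0.07 or 23.3% higher in TrkA-C, was called (edgeR adjusted p = 0.00958). This call held with any 1 library left out and in 13 of 14 alternatives, and ended with the axon injury score as a covariate (log2 fold change 0.30, adjusted p = 0.0857). Of the exon bases of Dusp5, 547 lie within the span of the antisense gene AC137853.2, introns of that gene included. AC137853.2 has no entry of that name in the table. Reads from any exon bases that the 2 genes share cannot be told apart without strand.

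Spry4 (Entrez 24066, chromosome 18, 38586247 to 38601347, minus strand), a Sprouty inhibitor of receptor tyrosine kinase signalling, came closest to a call among the remaining genes. It stood at 39.6, 40.1, 46.2 and 41.7 CPM in WT MoAr and at 36.5, 27.6, 31.7 and 34.0 CPM in TrkA-C MoAr, where all 4 libraries were lower. The log2 fold change was -0.37 ± 0.10 (95% interval -0.58 to -0.16; edgeR adjusted p = 0.0530). After Saline the WT libraries were at 33.0, 38.6, 34.9 and 34.0 CPM and the TrkA-C libraries at 42.7, 33.0, 36.2 and 29.9 CPM, a log2 fold change of 0.01 ± 0.10 (95% interval -0.20 to 0.22). The MoAr difference was called in 6 of 15 alternatives, DESeq2 (adjusted p = 0.0157) and limma-voom (adjusted p = 0.0480) among them, and without WT Saline 4, TrkA-C Saline 1, TrkA-C Saline 4 or TrkA-C MoAr 1 (lowest adjusted p = 0.0249, without TrkA-C Saline 1). Without TrkA-C Saline 1 the average over both injections was called as well (-0.23, adjusted p = 0.0344).

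The other 6 genes were not called between genotypes. Dusp6, a cytoplasmic ERK phosphatase widely used as a readout of ERK activity, ranged from 18.1 to 25.1 CPM in WT and from 16.7 to 26.4 CPM in TrkA-C libraries, with an average log2 fold change of -0.08 ± 0.10 (95% interval -0.28 to 0.12). For Dusp4, a nuclear phosphatase of ERK and other MAP kinases, the average was 0.09 ± 0.11 (-0.14 to 0.32), and for Spry2, another Sprouty inhibitor, it was 0.10 ± 0.07 (-0.05 to 0.26). Spred2, which like Spred1 recruits neurofibromin to Ras, gave -0.04 ± 0.05 (-0.14 to 0.07). The interval of Spred1 ran from -0.22 to -0.01 (-0.12 ± 0.05; edgeR adjusted p = 0.149), and that of Etv4, the PEA3-group relative of Etv5, from 0.03 to 0.54 (0.28 ± 0.12; edgeR adjusted p = 0.158). The interval of Spred2 was the narrowest of these 6, and that of Etv4 the widest.

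**Figure D2:**
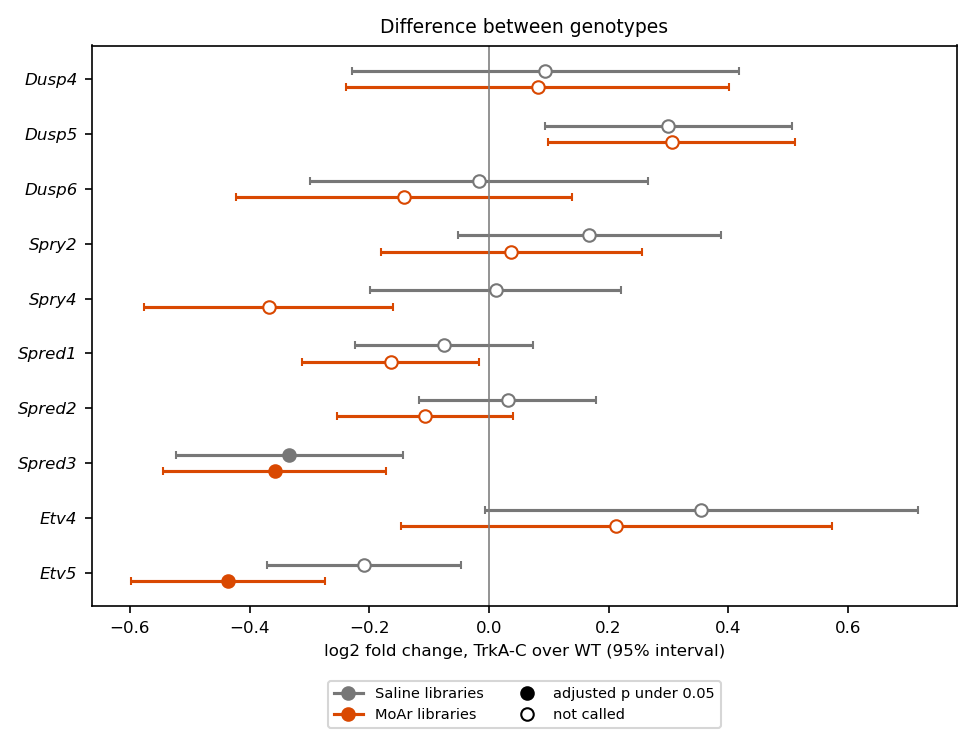
Log2 fold change of TrkA-C over WT (horizontal axis) for each of the 10 genes after Saline and after MoAr, with 95% intervals from edgeR; filled points were called at an adjusted p under 0.05. Etv5 lies at -0.21 after Saline and at -0.44 after MoAr, Spred3 at -0.33 and -0.36, and Dusp5 at 0.30 and 0.31.

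Set against all genes tested, 1 of the 10 fell after Saline and none rose, while 2.19% of all genes fell and 4.34% were called in either direction. After MoAr 2 of the 10 fell, against 1.75% of all genes that fell and 2.84% called in either direction. Over both injections 2 fell and 1 rose, against 4.64% and 4.33% of all genes (8.96% called). The median log2 fold change of the 10 genes was 0.02 after Saline, -0.12 after MoAr and -0.06 on average, beside 0.00 over all genes tested in each case. The groups did not overlap for 2 of the 10 genes after Saline (Spred3 and Dusp5; 14.6% of all genes) and for 3 after MoAr (Spry4, Spred3 and Etv5; 8.13% of all genes). With 10 genes, each gene weighs 10% in such shares.

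Markers of sensory neuron classes moved with genotype as well. Of 9 peptidergic nociceptor markers, 7 fell in TrkA-C after Saline and 7 after MoAr, and their summed level was 1911 to 2904 CPM in WT and 1299 to 1540 CPM in TrkA-C libraries. Of 10 A-fibre and proprioceptor markers, 5 rose after Saline (Etv1, Ntrk3, Pvalb, Runx3 and Whrn) and 7 after MoAr. In each case 1 marker had a negative log2 fold change, and on average 7 rose and 1 (Ntng1) fell. Ntrk3, which encodes TrkC, had the highest log2 fold change of the 10 (1.44 after Saline and 1.13 after MoAr). The part of the knock-in construct in the Ntrk3 counts was not tested. The mean level of the 10 markers, Ntrk3 included, was 6.20 to 6.45 log2 CPM in WT and 6.71 to 7.06 in TrkA-C. Their summed level overlapped between genotypes, at 3145 to 4103 CPM in WT and 3630 to 4912 CPM in TrkA-C. Of 7 non-peptidergic nociceptor markers, 4 rose after Saline (Gfra2, Mrgprd, Plxnc1 and Scn11a) and 1 after MoAr (Mrgprd). Their summed level was 1730.1 to 2242.5 CPM in WT and 2300.5 to 2594 CPM in TrkA-C. No defining marker of these 3 classes was at 0. Of the 13 axon injury markers tested, 4 fell after Saline (Gal, Gap43, Hspb1 and Stmn4) and 4 after MoAr (Gal, Gap43, Jun and Stmn4), and all 13 had a negative log2 fold change after MoAr. Gal is also 1 of the 9 peptidergic markers, so it enters both counts and the injury score. One library stood apart in marrow and red cell transcripts: neutrophil and marrow markers summed to 271 CPM in TrkA-C MoAr 3 and to at most 30.8 CPM elsewhere, and erythroid markers to 24.0 against at most 2.39 CPM. The MoAr call of Etv5 held without that library. The part of the neuron classes and of the injury markers in the differences of Etv5, Spred3 and Dusp5 was not tested, apart from the calls with the injury score as a covariate given above for Dusp5; with it Etv5 stayed called after MoAr and Spred3 did not (adjusted p = 0.177). Without the 2 muscle-rich libraries, TrkA-C Saline 1 and 4, the Etv5 and Spred3 averages stayed called, and the Saline difference of Spred3 was larger but not called (-0.39, adjusted p = 0.142).

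The genes whose levels ran most closely with each called gene were listed by Pearson correlation of log2 CPM over the 16 libraries, which share the genotype contrast. For Etv5 these were Ppp3ca, the calcineurin catalytic subunit (r = 0.92), Adcyap1, the neuropeptide PACAP and one of the peptidergic markers (0.89), and Prokr2, a prokineticin receptor (0.88). For Spred3 they were Reep1 (0.88), Optn, which encodes optineurin (0.87), and Letm1 (0.86), and for Dusp5 they were Nxpe2 (0.86), Myrip (0.86) and Uckl1os (0.85).

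The second question was whether joint inflammation changed the feedback genes. In WT and in TrkA-C ganglia alike, edgeR called 0 of the 10 genes between MoAr and Saline, as did DESeq2 and limma-voom. Over all genes it called 0 (0%) in WT, where DESeq2 called 11 and limma-voom 1, and 0 (0%) in TrkA-C, where DESeq2 called 15 and limma-voom 0. At an unadjusted p under 0.05 there were 1079 genes in WT (6.96%) and 881 in TrkA-C (5.68%). Among the 10 genes, 3 were under this p in WT (Etv5, Spry4 and Spred3) and 0 in TrkA-C.

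In WT, Etv5 stood at 141 to 180 CPM after MoAr and at 116 to 138 CPM after Saline, and all 4 MoAr libraries were higher. The log2 fold change was 0.28 ± 0.08 (95% interval 0.12 to 0.44; edgeR adjusted p = 0.516), ranked 56 among all genes by p. Spry4 was also higher in all 4 WT MoAr libraries (0.25 ± 0.10; edgeR adjusted p = 0.703), and Spred3 gave 0.21 ± 0.09 with groups that overlapped (edgeR adjusted p = 0.703). Groups that do not overlap were found for 2 of the 10 genes in WT, against 3.02% of all genes. None of these values passed the adjustment over all genes.

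In TrkA-C, the same 3 genes gave 0.05 ± 0.08 for Etv5, -0.13 ± 0.10 for Spry4 and 0.18 ± 0.09 for Spred3. Dusp5 was lower in all 4 TrkA-C MoAr libraries (15.3 to 18.0 CPM) than in the TrkA-C Saline libraries (19.0 to 20.3 CPM), with a log2 fold change of -0.20 ± 0.10 (edgeR adjusted p = 0.879). It was the 1 gene of the 10 whose groups did not overlap there (4.32% of all genes). The value of Dusp5 in WT was -0.20 ± 0.10, with groups that overlapped. Dusp6 gave -0.01 ± 0.13 in WT (95% interval -0.29 to 0.27) and -0.13 ± 0.13 in TrkA-C (-0.41 to 0.15), and was not called in either genotype.

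Averaged over both genotypes, edgeR called 4 genes (0.0258%), none of them among the 10, while DESeq2 called 57 and limma-voom 7. The largest of the members' averages were 0.20 ± 0.06 for Spred3 (edgeR adjusted p = 0.477), -0.20 ± 0.07 for Dusp5 (0.534), -0.20 ± 0.12 for Etv4 (0.858) and 0.17 ± 0.05 for Etv5 (0.501). These comparisons share their Saline and MoAr libraries with the genotype comparisons above, so the values are not independent of them.

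**Figure D3:**
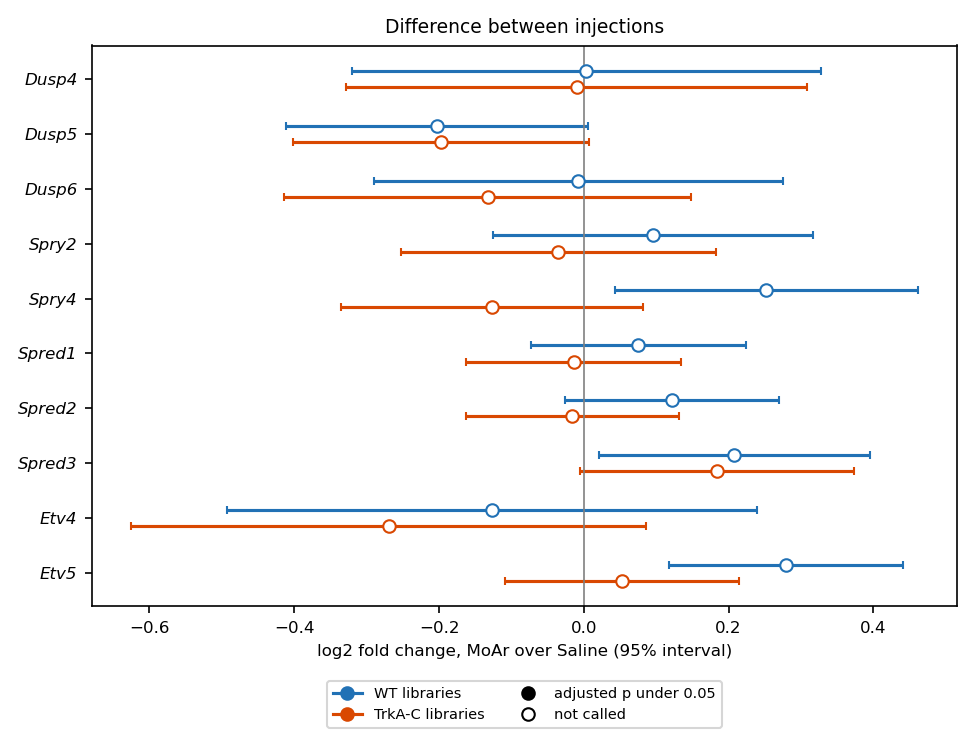
Log2 fold change of MoAr over Saline (horizontal axis) for each of the 10 genes in WT and in TrkA-C ganglia, with 95% intervals from edgeR; open points were not called. In WT the intervals of Etv5, Spry4 and Spred3 lie above 0, and none of the 20 values was called.

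The third question was whether the injection difference depended on genotype. The interaction, which is the MoAr difference in TrkA-C minus that in WT, was not called for any gene by edgeR, DESeq2 or limma-voom, and 976 genes (6.29%) had an unadjusted p under 0.05 in edgeR. Spry4 was the 1 member among them, at -0.38 ± 0.14 (95% interval -0.67 to -0.08; edgeR adjusted p = 0.718). Etv5 gave -0.23 ± 0.11 (-0.46 to 0.00; edgeR adjusted p = 0.718). The genotype difference of Etv5, called after MoAr and not after Saline, was thus not shown to differ between the injections. Spred3 (-0.02 ± 0.13) and Dusp5 (0.01 ± 0.14) had interactions near 0, with intervals of -0.29 to 0.24 and -0.29 to 0.30.

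Other genes of the pathway were read from lists drawn up by function. Of 32 genes from the Trk adaptors through Ras and RAF to ERK and its kinases, none was called between genotypes by edgeR after Saline (10 at an unadjusted p under 0.05) or after MoAr (5). Such p-values were common over all genes. With RLE size factors, another scaling of the libraries, 3663 of 15507 genes were under this p after Saline and 1944 after MoAr. Over both injections 2 of the 32 fell, against 4.64% of all genes tested. They were Rap1b, a small GTPase of sustained ERK signalling (-0.20 ± 0.05; edgeR adjusted p = 0.0172), and Map2k1, which encodes the ERK kinase MEK1 (-0.13 ± 0.04; adjusted p = 0.0290). The call of Map2k1 ended without WT Saline 1 or 3, WT MoAr 3 or 4, TrkA-C Saline 2, 3 or 4, or TrkA-C MoAr 2 or 3 (highest adjusted p = 0.0793, without WT MoAr 3), and with the muscle score as a covariate or WT source numbers 1 to 5 only. That of Rap1b held without any 1 library and in 10 of 14 alternatives, and ended with the muscle score (adjusted p = 0.0567) or the injury score (0.138) as a covariate, with WT source numbers 1 to 5 only (0.0970), and without the 2 muscle-rich libraries (0.0919). Of 5 further MAP kinase phosphatases tested (of 7 listed) and 8 further negative regulators tested (of 9), none was called in any of the 7 comparisons. Spry1, the Sprouty relative among them, stood at 1.77 to 3.53 CPM and gave an average genotype difference of 0.26 ± 0.13 (edgeR adjusted p = 0.253).

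Among 7 other ETS factors, Etv1, the third PEA3-group gene and a marker of proprioceptors, rose where Etv5 was lower. It stood at 109 to 133 CPM in the WT libraries and at 160 to 222 CPM in the TrkA-C libraries, and no library of one genotype fell in the range of the other. Its log2 fold change was 0.58 ± 0.09 after Saline (edgeR adjusted p = 0.00188) and 0.54 ± 0.09 after MoAr (edgeR adjusted p = 0.00249), the latter not called with WT source numbers 6 to 9 only (adjusted p = 0.0526). Of the 3 PEA3-group genes, Etv1 rose, Etv5 fell on average, and Etv4 was not called. The average of Etv4 was 0.28 ± 0.12 (95% interval 0.03 to 0.54), the same sign as that of Etv1. The genes were not tested against each other. Ets1 rose after Saline (0.36 ± 0.09; edgeR adjusted p = 0.0269), a call that ended without WT Saline 1 or 3 or TrkA-C Saline 1 or 4 (highest adjusted p = 0.0736), and on average (0.27 ± 0.06; adjusted p = 0.00852). The Saline call of Ets1 held in 11 of 15 alternatives, and ended with the muscle score as a covariate, only the groups compared, WT source numbers 6 to 9 only, or the muscle-rich libraries left out (highest adjusted p = 0.213). Its average call ended with the muscle score as a covariate (0.21, adjusted p = 0.0688) and with WT source numbers 6 to 9 only (0.22, adjusted p = 0.0531).

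Of 14 other genes that ERK induces, 1 fell after each injection. Fos, an immediate early gene, fell after Saline (-0.84 ± 0.18; edgeR adjusted p = 0.0164), with 3.80 to 7.88 CPM in WT and 2.86 to 3.60 CPM in TrkA-C, and gave 0.00 ± 0.18 after MoAr. The Saline call of Fos held in 11 of 15 alternatives, and ended with the muscle score as a covariate (adjusted p = 0.0507), only the groups compared (0.0764), WT source numbers 6 to 9 only (-0.49, adjusted p = 0.109), and the muscle-rich libraries left out (0.0930). Egr1, another, was at 33.2 and 21.5 CPM in WT Saline 1 and 2 and at 8.70 to 14.4 CPM in the other 14 libraries (edgeR adjusted p = 0.229 between genotypes after Saline). The ephrin receptor gene Epha4 fell after MoAr (-0.71 ± 0.17; edgeR adjusted p = 0.0318), a call that ended without WT MoAr 2, 3 or 4 or TrkA-C MoAr 1, 2 or 3 (highest adjusted p = 0.128, without WT MoAr 2). Its average difference was also called (-0.41 ± 0.12; adjusted p = 0.0452), and this call ended in 11 of the 16 analyses with 1 library left out: WT Saline 1 and 3, WT MoAr 2, 3 and 4, TrkA-C Saline 1, 2 and 4, and TrkA-C MoAr 1, 2 and 3 (highest adjusted p = 0.100). The calls of Epha4 held in 10 of 15 alternatives after MoAr and in 7 of 14 on average. The interaction was not called for Fos (0.84; edgeR adjusted p = 0.718) or for Epha4 (-0.60; edgeR adjusted p = 0.718). Their genotype differences were thus not shown to differ between the injections.

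Upstream, Ntrk3 rose in TrkA-C by 1.44 ± 0.15 after Saline (edgeR adjusted p = 3.94e-05) and 1.13 ± 0.14 after MoAr (edgeR adjusted p = 0.000249). Ngfr, the co-receptor p75 of the Trk receptors, fell by 0.59 ± 0.06 (edgeR adjusted p = 2.24e-05) and by 0.75 ± 0.06 (adjusted p = 7.18e-07), and Ntrk2, the receptor for BDNF, was not called (0.18 ± 0.09 and -0.01 ± 0.09). Of 11 other receptor tyrosine kinases that signal to ERK, none was called after Saline (2 at an unadjusted p under 0.05). With RLE size factors, 3663 of 15507 genes were under this p after Saline. Fgfr1, a fibroblast growth factor receptor, fell after MoAr (-0.20 ± 0.05; edgeR adjusted p = 0.0210), a call that ended without WT MoAr 1 or 3 or TrkA-C MoAr 3 or 4 (highest adjusted p = 0.0809). On average Fgfr1 fell (-0.18 ± 0.03; edgeR adjusted p = 0.00187) and Igf1r rose (0.22 ± 0.06; adjusted p = 0.0266), the latter not called without WT MoAr 3 or 4, TrkA-C Saline 3 or 4, or TrkA-C MoAr 3 or 4 (highest adjusted p = 0.0634). The MoAr call of Fgfr1 also ended with the injury score as a covariate (adjusted p = 0.163) and with WT source numbers 6 to 9 only (0.0773), and the call of Igf1r held in 10 of 14 alternatives.

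Apart from the 4 groups, the WT libraries can be split by the number that the labels' source names give each library. In WT, numbers 1 to 5 hold Saline 1 and 2 and MoAr 1 and 2, and numbers 6 to 9 hold the other 4 libraries; the labels do not say what the number means. Dusp6 was at 22.2 to 25.1 CPM in the 4 low-numbered and 18.1 to 21.4 CPM in the 4 high-numbered WT libraries. Dusp4 (4.42 to 5.69 against 5.82 to 7.75 CPM) and Spry2 (17.7 to 21.1 against 21.8 to 25.9 CPM) ran the other way. These 3 of 10 genes did not overlap between the low and high numbers, against 14.9% of all genes tested. The difference between high and low numbers was not called for any of the 10 genes. The edgeR adjusted p was 0.0920 for Dusp4, 0.1515 for Spry2 and 0.1675 for Dusp6. None of the 3 was called between genotypes or injections. Etv5 overlapped (120 to 151 against 116 to 180 CPM), as did Spred3 and Dusp5. With this split of the WT libraries as a term in the model, the MoAr call of Etv5 held. It held as well with the WT libraries of the low or of the high numbers alone. The TrkA-C libraries were not split.

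**Figure D4:**
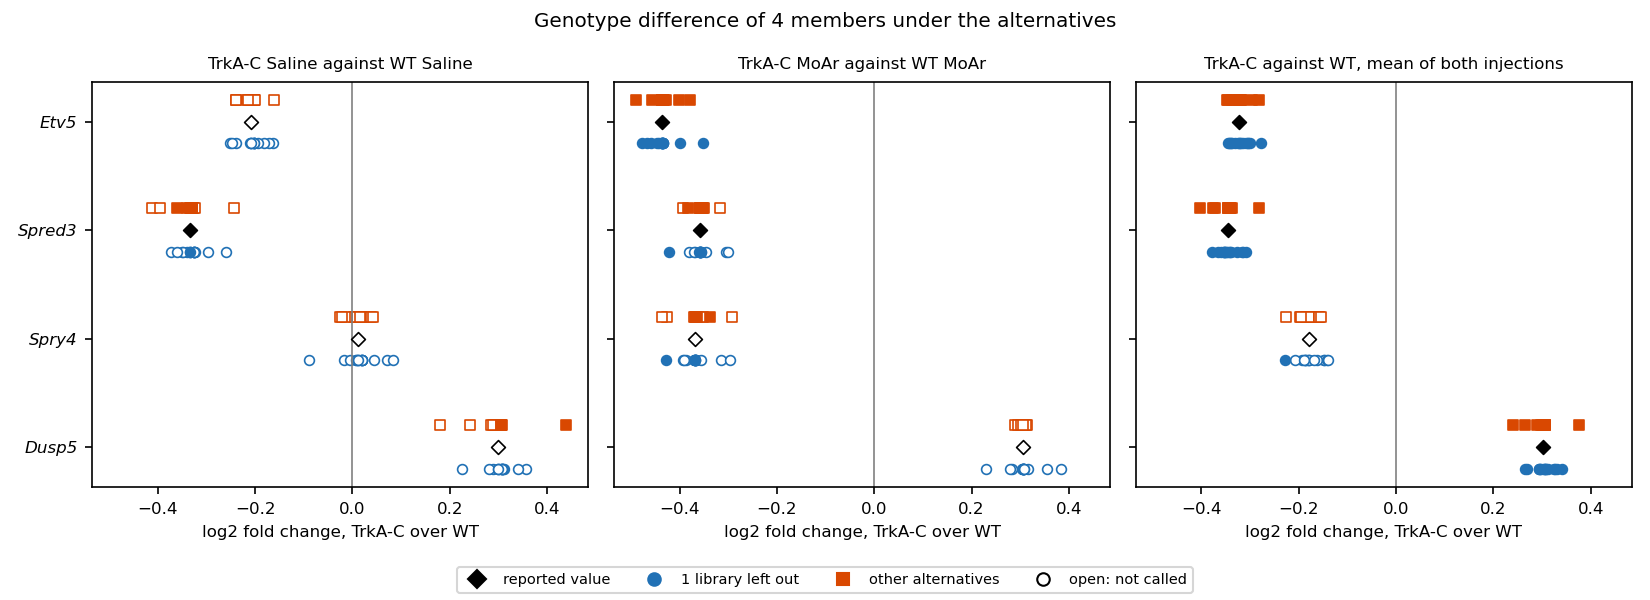
Log2 fold change of TrkA-C over WT (horizontal axes) for Etv5, Spred3, Spry4 and Dusp5 in 3 comparisons, as reported (diamonds), with 1 library left out (circles) and under the other alternatives (squares); open symbols were not called. All values of Etv5 are called after MoAr and on average, while those of Spred3 after a single injection fall on both sides of the threshold.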

How the data were processed

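The authors deposited raw read counts per gene, 1 table for 16 libraries, made per the labels' protocols from poly-A RNA with a strand-selecting kit and single-end reads. The submitters' processing notes name build mm10 and, without roles, HTSeq 0.6.1p1, TopHat2 2.1.1, Bowtie2 2.3.5.1, FastQC, SAMtools 1.5 and bcl2fastq 2.20; the strand setting and the annotation are not given in the sources used here. Groups came from the sample titles.

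Counts were tested with edgeR 4.0.16 (R 4.3.3; quasi-likelihood, TMM, filterByExpr, 1 mean per group over all 16 libraries, Benjamini-Hochberg). The same procedure was also run on simulated data, with an outcome not reported here. Alternatives used limma 3.58.1, DESeq2 1.42.0, other scalings, filters and covariates, and leaving out libraries. Each library is a pool of 2 mice, so p-values measure the spread between pools.

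The 10 genes and all lists were chosen with earlier results of these data known. Named beside the 10 genes were at most 4 called genes per pathway list with the smallest p, a few fixed genes (Ntrk2, Ntrk3, Fos, Egr1, Etv1 and Spry1 among them), and the 3 most correlated genes of each called gene; some results of this rule are not reported here. The split by source number was added after the values were seen. Exon lengths and overlaps came from GENCODE M21, promoters from RefSeq. Entries without an identifier (28, 0.192% of counts) carry symbols and were kept.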

Additional observations from a re-analysis of the deposited data

Results flagged for a closer look

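Among the 40 groups of 4 libraries formed by 10 genes and 4 groups, 2 held a library that stood apart by Dixon's test at 95%, which flags about 1 group in 20 by chance. Dusp4 was at 5.91 CPM in TrkA-C Saline 1, where the other 3 libraries of that group lay between 6.45 and 6.52 CPM. TrkA-C Saline 1 is also 1 of the 2 libraries rich in skeletal muscle transcripts, and the part of muscle in the Dusp4 value was not tested. Spred3 was at 17.8 CPM in WT MoAr 2, where the other 3 libraries lay between 15.3 and 15.7 CPM. Without WT MoAr 2 the Spred3 difference after MoAr was -0.30 on the log2 scale and was not called (edgeR adjusted p = 0.139).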

How the results depend on the processing

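After Saline the number of the 10 genes called, 1 as reported, was 0 with RLE size factors, without a count filter, with the muscle score or the injury score as a covariate, with only the groups compared in the fit, with WT source numbers 1 to 5 only, and without the 2 muscle-rich libraries. It was 2 with DESeq2 and with the WT split by source number as a term, where Dusp5 was called as well. It was 1 with WT source numbers 6 to 9 only (Dusp5 in place of Spred3), and 0 to 1 with 1 library left out. After MoAr the number, 2 as reported, was 1 without a count filter, with either covariate, and with WT source numbers 1 to 5 or 6 to 9 only, in each case because Spred3 was no longer called. It was 3, with Spry4 added, with DESeq2, limma-voom, robust dispersion, the WT split by source number as a term, and without the 2 muscle-rich libraries. It was 2 with only the groups compared, where Spry4 was called in place of Spred3 (adjusted p = 0.0685); it ranged from 1 to 3 with 1 library left out. Over both injections it was 3 as reported, 2 with the injury score as a covariate, where Dusp5 was not called, and 3 to 4 with 1 library left out. No member was called in any alternative of the 4 comparisons that involve the injection. No called member changed sign.

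Over all genes, calls between genotypes ranged from 132 (without the muscle-rich libraries) to 2525 (WT source numbers 6 to 9 only) after Saline against 673 reported, from 158 to 667 after MoAr against 441, and from 556 to 2823 on average against 1390. Between MoAr and Saline in TrkA-C, 53 genes were called without TrkA-C Saline 2 against 0 reported. The cause of these shifts was not tested.

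Libraries with the same replicate number in their titles did not deviate together (r from -0.207 to 0.133), which gave no sign of pairing by that number. The source numbers that groups share were not checked in this way. With a replicate block 484, 422 and 1231 genes were called between genotypes after Saline, after MoAr and on average, and the members called numbered 1, 2 and 3, as without the block.

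Between 63 and 5057 counts stood behind each value.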
